A study of Mus musculus with 8 samples.

Results

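The 10 genes described here, *Apob*, *Mttp*, *Apoa1*, *Apoa2*, *Apoe*, *Apoc1*, *Apoc3*, *Apoa4*, *Apoa5* and *Apoh*, encode proteins that liver cells put into lipoproteins, together with the transfer protein that loads lipid onto them. They were found by matching the transcript accession of every non-control probe to a RefSeq gene name. All 10 genes were on the array, with 13 of its 55681 probes, and all 10 were among the 11072 genes bright enough to be tested. The main probe of each was well above background on 8 of 8 arrays.

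RNA came from isolated hepatocytes of male mice on a standard diet, 12 to 14 weeks old, in 4 hCNR1+/+ samples (strain label CNRO) and 4 hCNR1-/- samples (strain label CNRO Alb-Cre). The hCNR1-/- mice were bred from CNR1flox/flox mice and carriers of Alb-Cre, a Cre recombinase under the albumin promoter, which is active in hepatocytes, so that *Cnr1*, the gene of the cannabinoid receptor CB1R, is lost there and kept in other cells of the liver. The hCNR1+/+ mice were littermates, and whether they carried floxed alleles is not given in the sources used here. The labels number the samples within a genotype without saying that each came from its own mouse, so p-values measure only the spread between these samples. The comparison asks how the genes differ between hepatocytes with and without CB1R.

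Lipoproteins carry triglyceride and cholesterol through the blood, wrapped in apolipoproteins that give the particle its shape and decide which enzymes and receptors it meets. In hepatocytes, the microsomal triglyceride transfer protein encoded by *Mttp* lipidates the growing apolipoprotein B chain in the endoplasmic reticulum, and the particle leaves the cell as very low density lipoprotein (VLDL). High density lipoprotein (HDL) is built on apolipoprotein A-I, and the smaller exchangeable apolipoproteins move between particles.

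Labelled RNA was hybridised to 1-colour Agilent arrays, and the level of a gene is given as log2 of the spot intensity minus the 75th percentile of that array, so a gene's levels can be compared between samples but not with another gene's. That percentile ran from 62.0 to 139 on the hCNR1+/+ arrays and from 79.4 to 124 on hCNR1-/- replicates 1 to 3, and it was 29.3 on hCNR1-/- replicate 4, which stood apart with 28.6% of its spots well above background against 35.0% to 42.3% on the others. All arrays lay on the same slide with the genotypes in separate rows, and an effect of the row cannot be told apart from one of the genotype. *Cnr1* itself was too dim on these arrays to check the deletion, as its probe rose well above background on 0 of 4 arrays of either genotype. The genotype of each array here rests on the labels. The study also measured *Cnr1* RNA in isolated hepatocytes of both genotypes, and its methods describe a PCR assay for very low levels. Of 24 hepatocyte markers tested, all well above background on every array, 0 were called and 5 had an unadjusted p below 0.05 in limma, with a median difference of -0.044. Of those with such a p, 2 were lower by more than 2-fold and 0 higher. Under quantile normalization the median was -0.34, with 20 of the 24 lower. The 12 Kupffer cell markers tested of 17 listed were all lower in hCNR1-/- samples, 2 of them called, with a median difference of -0.98, and the mean of the list ran from 1.03 to 2.22 in hCNR1+/+ and from -0.050 to 0.72 in hCNR1-/- samples. The Kupffer cell markers *Marco*, *Vsig4* and *Clec4f* had differences of -2.41, -1.77 and -1.33, of which *Marco* was called, and *Adgre1*, *Timd4*, *Cd163*, *Lyz2* and *Cybb* of the list were too dim to be tested. The lists of endothelial (11 tested), lymphocyte (3), cholangiocyte (3), stellate (1) and neutrophil (1) markers held 0 called genes, and their median differences were -0.18, 0.61, 0.23, -0.91 and 0.70. In such bulk samples, fewer cells of a type and less RNA per cell cannot be told apart. The part of other cells in the values below was not tested.

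The stretches of 250 bases before the start of *Apob* and of *Mttp* are shown, since these genes act together in particle assembly and *Apob* was the gene called in the comparison. They are from RefSeq on the build GRCm38.p6, 5′ to 3′ on the strand of the gene, at chr12:7977427-7977676 on the plus strand for *Apob* and at chr3:138143419-138143668 on the minus strand for *Mttp*. Capitals mark matches to the motifs searched on both strands, which were TATAAA, a form of the TATA box, then TGACCT, a hexamer known from nuclear receptor sites, then CAAAGTCCA, an HNF4A core, and GTTAAT, known from HNF1 sites.
Apob: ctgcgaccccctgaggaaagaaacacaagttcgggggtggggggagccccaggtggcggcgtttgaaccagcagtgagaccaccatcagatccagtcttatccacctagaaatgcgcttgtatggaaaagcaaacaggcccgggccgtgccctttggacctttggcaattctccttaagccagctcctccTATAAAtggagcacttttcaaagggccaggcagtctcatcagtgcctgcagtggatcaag
Mttp: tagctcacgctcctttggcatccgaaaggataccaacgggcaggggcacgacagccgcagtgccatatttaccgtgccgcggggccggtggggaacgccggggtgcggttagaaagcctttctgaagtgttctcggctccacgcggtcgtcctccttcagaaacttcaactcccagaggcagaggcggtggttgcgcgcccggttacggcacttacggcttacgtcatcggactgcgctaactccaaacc

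The *Apob* stretch holds TATAAA at position -60 from the annotated start, and the *Mttp* stretch holds none of the 4 motifs. Over all 32851 stretches of this length, 12.4% hold TATAAA, 14% TGACCT, 0.384% CAAAGTCCA and 6.43% GTTAAT. Of the 10 genes, 8 matched the table, with 12 stretches, since *Apoa2* and *Apoa5* have a pair of starts each and *Apoe* has 3. TATAAA stood in 5 of the 12 (*Apoa2*, both overlapping stretches of *Apoa5*, *Apob* and *Apoe*), TGACCT in 2 (*Apoa2* and *Apoh*), GTTAAT in 1 (*Apoe*) and CAAAGTCCA in 0. No stretch of *Apoc1* or *Apoc3* was in the table. A match is a string of letters and was not tested as a site.

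*Apob*, the structural protein of VLDL, was the only gene of the 10 called. It rose in hCNR1-/- hepatocytes by 1.63 on the log2 scale (standard error 0.38, 95% confidence interval 0.77 to 2.49), which is 3.1-fold, with an adjusted p of 0.0477 from limma. Replicates 1 to 4 of hCNR1+/+ had levels of 4.77, 5.32, 4.05 and 4.04, and those of hCNR1-/- had 6.02, 5.496, 6.24 and 6.96. Every hCNR1-/- sample lay above every hCNR1+/+ sample, with the exact two-sided permutation p at 0.0286, the smallest that 4 against 4 samples can give. On unscaled log2 intensity the genotypes overlapped, from 9.99 to 12.45 in hCNR1+/+ and from 11.81 to 12.97 in hCNR1-/- samples (exact permutation p = 0.143). After scaling, the nearest values of the genotypes were 5.32 in hCNR1+/+ replicate 2 and 5.496 in hCNR1-/- replicate 2.

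The call of *Apob* stood near the threshold. The adjusted p in limma ran from 0.0114 to 0.817 over 25 alternative settings, 5 of which kept it below 0.05. The difference stayed positive under all 25, from 1.08 to 1.89. In limma the unadjusted p passed the same threshold under 24 of the settings, and with no scaling it did not, with an adjusted p of 0.817. Without hCNR1-/- replicate 4 the difference was 1.37 and the adjusted p in limma was 0.0405, and without any of the other samples in turn the adjusted p was between 0.0545 and 0.143.

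A second *Apob* probe was dimmer and less even. It read 1.92, 1.83, 0.033 and -2.09 on the hCNR1+/+ arrays against 1.75, 1.47, 2.13 and 2.25 on the hCNR1-/- arrays, and the spot on hCNR1+/+ replicate 4 was not well above background. The groups overlapped on this probe, because hCNR1+/+ replicates 1 and 2 were as high as the hCNR1-/- samples. Its difference was 1.48 (standard error 0.78) and was not called (adjusted p = 0.291 in limma with each probe on its own). Without hCNR1+/+ replicate 4 the difference of its means was 0.64.

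*Mttp*, the lipid loader of apolipoprotein B, had levels of 4.61, 4.55, 4.41 and 5.15 in hCNR1+/+ and of 5.02, 5.005, 4.76 and 3.28 in hCNR1-/- replicates. In this gene 3 of the 4 hCNR1-/- samples lay above the hCNR1+/+ mean, and replicate 4 lay below every other sample. The difference was -0.17 (standard error 0.39, 95% confidence interval -1.05 to 0.71, adjusted p = 0.836 in limma). Without hCNR1-/- replicate 4 it was 0.25, with the sign turned, and the adjusted p was 0.447. *Mttp* was thus called in neither direction.

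**Figure D1:**
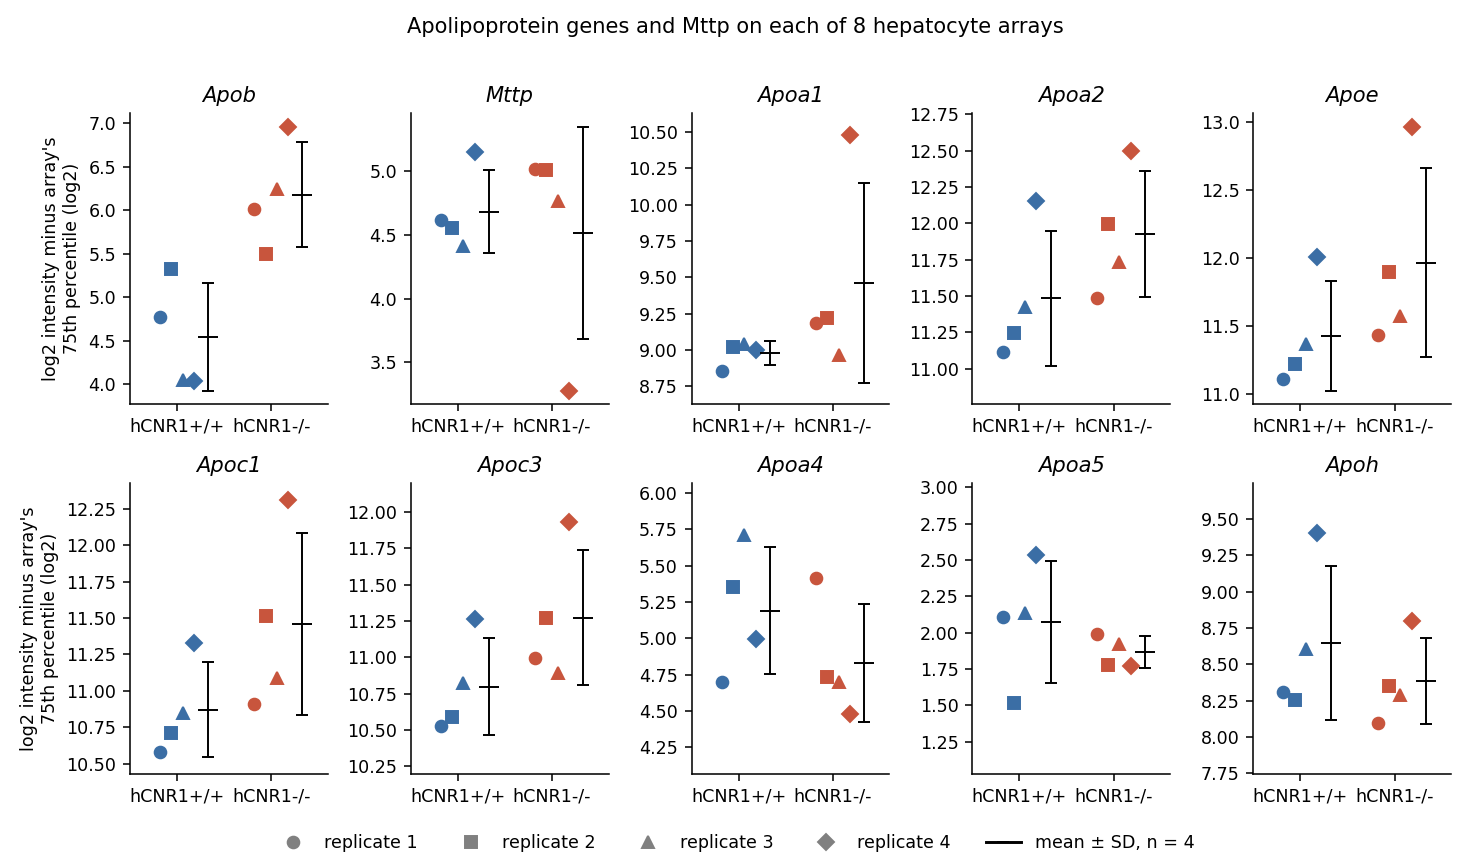
Level of each of the 10 genes (log2 intensity minus the array's 75th percentile) on every array, hCNR1+/+ in blue and hCNR1-/- in red, with a marker shape per replicate and the mean and SD of 4 in black. *Apob* is the only panel in which the genotypes do not overlap, and hCNR1-/- replicate 4 is the highest point in *Apob*, *Apoa1*, *Apoa2*, *Apoe*, *Apoc1* and *Apoc3* and the lowest in *Mttp* and *Apoa4*.

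Apolipoproteins of HDL were not called. *Apoa1*, the main protein of HDL, was at 8.85, 9.02, 9.04 and 9.003 in hCNR1+/+ and at 9.19, 9.22, 8.96 and 10.48 in hCNR1-/- replicates. The hCNR1+/+ samples lay close together, and 3 of 4 hCNR1-/- samples lay above all of them, with replicate 4 far above the rest. The order was another without scaling. On unscaled log2 intensity 0 of 4 hCNR1-/- samples were above the highest hCNR1+/+ sample, the hCNR1+/+ SD was 0.52, and replicate 4 was the lowest hCNR1-/- sample, at 15.35 against 15.52 to 16.14. The scaled difference was 0.48 (standard error 0.32, adjusted p = 0.420 in limma, exact permutation p = 0.114) and fell to 0.14 without hCNR1-/- replicate 4. *Apoa2*, another abundant HDL protein, was at 11.12, 11.24, 11.42 and 12.16 in hCNR1+/+ and at 11.49, 12.00, 11.73 and 12.50 in hCNR1-/- replicates. The genotypes overlapped, since hCNR1+/+ replicate 4 was above 3 of the hCNR1-/- samples, and the difference was 0.44 (standard error 0.30, adjusted p = 0.432 in limma). The *Apoa2* difference was 0.25 without hCNR1-/- replicate 4 and 0.67 without hCNR1+/+ replicate 4. On unscaled log2 intensity hCNR1-/- replicate 4 was the lowest of all samples, at 17.37 against 18.11 to 18.44 in the others. A second *Apoa2* probe gave 0.35 (standard error 0.28), and the gap between the probes stayed between -0.96 and -0.58 on all arrays.

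*Apoe*, through which remnant particles bind receptors on liver cells, was at 11.11, 11.22, 11.36 and 12.01 in hCNR1+/+ and at 11.43, 11.89, 11.57 and 12.96 in hCNR1-/- replicates. The difference was 0.54 (standard error 0.36, adjusted p = 0.420 in limma). Only hCNR1-/- replicate 4 was above the highest hCNR1+/+ sample, and without it the difference was 0.21. On unscaled log2 intensity that sample was the lowest of all, at 17.84 against 17.96 to 18.38 in the others.

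The arrays print the probes of *Apoa1* and *Apoe* at 10 spots each, which separates error within an array from the spread between samples. For *Apoa1* the SD between spots was 0.032 to 0.090 on each array, against an SD between samples of 0.085 in hCNR1+/+ and 0.69 in hCNR1-/-. For *Apoe* the SD between spots was 0.082 to 0.17, against 0.40 and 0.69 between samples, with 2 spots left out for an outlier flag. The spots of an array are shifted by the same percentile, so their spread does not include the error of the scaling. The lowest *Apoa1* spot of hCNR1-/- replicate 4 was 10.36, and the highest spot on any other array was 9.29.

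**Figure D2:**
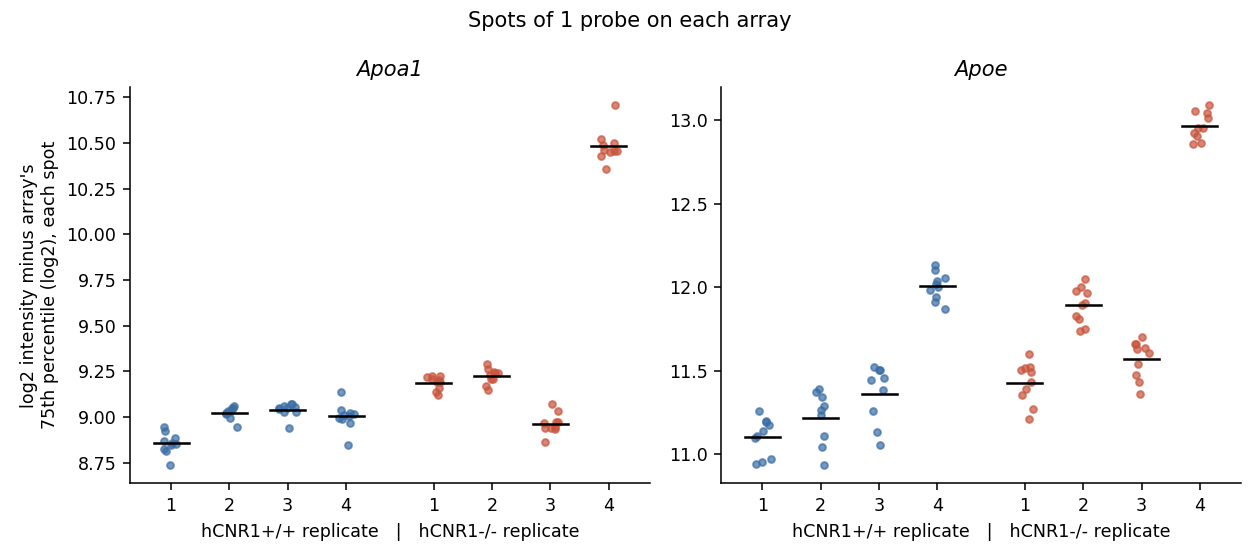
Each spot of the probe of *Apoa1* (left) and of *Apoe* (right), as log2 intensity minus the array's 75th percentile, by array, with the mean of the spots as a black line. The 10 spots of an array lie close together, and after the scaling the spots of hCNR1-/- replicate 4 lie above those of all other arrays, whereas before it that array was at 15.35 for *Apoa1*, the lowest of its genotype, and at 17.84 for *Apoe*, the lowest of all.

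Among the apolipoproteins that tune triglyceride clearance, none was called either. *Apoc1*, which hinders particle uptake, was at 10.58, 10.71, 10.85 and 11.33 in hCNR1+/+ and at 10.91, 11.52, 11.09 and 12.31 in hCNR1-/- replicates, a difference of 0.59 (standard error 0.33, adjusted p = 0.329 in limma). *Apoc3*, an inhibitor of lipoprotein lipase, was at 10.53, 10.59, 10.82 and 11.26 in hCNR1+/+ and at 10.997, 11.27, 10.89 and 11.93 in hCNR1-/- replicates on its brighter probe, a difference of 0.47 (standard error 0.28, adjusted p = 0.367 in limma). For both genes all 4 hCNR1-/- samples were above the hCNR1+/+ mean and 2 of 4, replicate 4 among them, were above every hCNR1+/+ sample. On unscaled log2 intensity hCNR1-/- replicate 4 was instead the lowest of all samples, at 17.19 for *Apoc1* and at 16.80 for *Apoc3*. Without hCNR1-/- replicate 4 the differences were 0.30 for *Apoc1* and 0.26 for *Apoc3*.

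The pair of *Apoc3* probes, which the array assigns to different RefSeq transcripts of the gene, differed in sign. The dimmer probe was at 2.05, 2.22, 2.89 and 2.47 in hCNR1+/+ and at 2.61, 1.86, 1.65 and 2.13 in hCNR1-/- replicates. Its difference was -0.35 (standard error 0.28, adjusted p = 0.490 in limma with each probe on its own). The gap between the probes, in which a shift of the whole array cancels, widened by 0.82 in hCNR1-/- samples. There 3 of 4 were outside the hCNR1+/+ range, with an exact permutation p of 0.0857, which misses 0.05. In each genotype the gap was widest on replicate 4, the array with the lowest percentile, at -8.79 in hCNR1+/+ and -9.80 in hCNR1-/-. A part of array brightness in the gap was not tested.

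**Figure D3:**
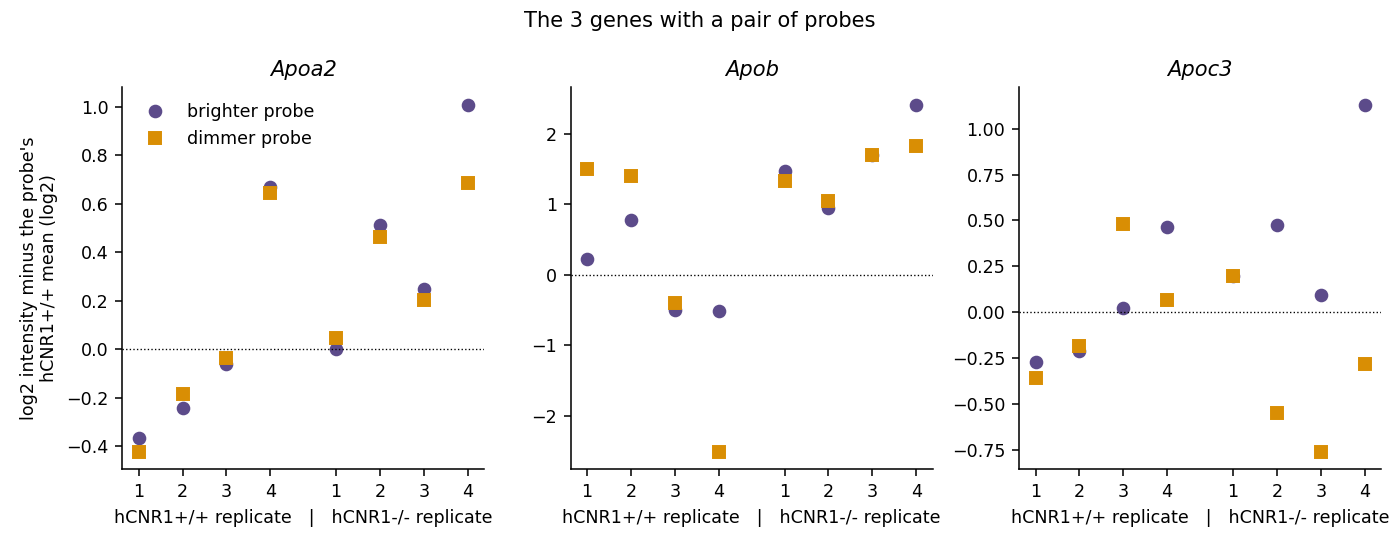
Level of both probes of *Apoa2*, *Apob* and *Apoc3* on each array, as log2 intensity minus the probe's own hCNR1+/+ mean, brighter probe as circles and dimmer probe as squares. The *Apoa2* probes follow each other, the *Apob* probes part in hCNR1+/+ replicates 1 and 4, and the *Apoc3* probes part in hCNR1-/- replicates 2 to 4.

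*Apoa4*, which is made in liver and intestine, was at 4.70, 5.35, 5.71 and 4.998 in hCNR1+/+ and at 5.42, 4.74, 4.70 and 4.48 in hCNR1-/- replicates. *Apoa5*, which aids lipolysis of triglyceride, was at 2.11, 1.52, 2.14 and 2.54 in hCNR1+/+ and at 1.99, 1.78, 1.92 and 1.77 in hCNR1-/- replicates. The differences were -0.36 (standard error 0.29, adjusted p = 0.509 in limma) and -0.21 (standard error 0.24, adjusted p = 0.645 in limma), and in both genes the genotypes overlapped. With a sample left out they ran from -0.55 to -0.18 for *Apoa4* (without hCNR1-/- replicate 1 and hCNR1+/+ replicate 3) and from -0.40 to -0.058 for *Apoa5* (without hCNR1+/+ replicates 2 and 4). *Apoa1*, *Apoc3*, *Apoa4* and *Apoa5* neighbour each other on chromosome 9, and their differences had both signs within this cluster. The neighbours *Apoe* and *Apoc1* on chromosome 7 had 0.54 and 0.59.

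*Apoh*, or beta-2-glycoprotein I, binds anionic phospholipid. It was at 8.31, 8.25, 8.61 and 9.40 in hCNR1+/+ and at 8.10, 8.35, 8.29 and 8.80 in hCNR1-/- replicates, a difference of -0.26 (standard error 0.29, adjusted p = 0.640 in limma). It was -0.0083 without hCNR1+/+ replicate 4, -0.17 without hCNR1-/- replicate 1 and -0.40 without hCNR1-/- replicate 4. Under quantile normalization the *Apoh* difference was -0.57 (adjusted p = 0.274 in limma). Under normexp with quantile it was -0.61 (95% confidence interval -1.13 to -0.079, unadjusted p = 0.028 and adjusted p = 0.187 in limma). On unscaled log2 intensity the same probe was at 15.36, 15.38, 15.39 and 15.36 in hCNR1+/+ and at 15.05, 14.66, 14.84 and 13.67 in hCNR1-/- replicates. All 4 hCNR1-/- samples were then below all hCNR1+/+ samples (exact permutation p = 0.0286, the smallest that 4 against 4 samples can give). The difference was -0.82 (95% confidence interval -1.97 to 0.33, adjusted p = 0.817 in limma) against a median of -0.47 over all genes. The share of all genes without overlap on this unscaled level is not given here, so the separation cannot be read as unusual.

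Of the 10 genes, 1 was called higher and 0 lower at an adjusted p below 0.05, where 2.94% of the genes tested were called higher and 1.3% lower. That background was 325 higher and 144 lower genes, and its split moved with the scaling, to 133 and 83 under quantile normalization, 64 and 70 with the hepatocyte markers as reference, 101 and 209 with the percentile of bright probes, and 1 and 29 with no scaling. *Apob* was also the only one with an unadjusted p below 0.05 in limma. With the study's own threshold, more than a 2-fold change at an unadjusted p below 0.05, *Apob* alone was called again, where 4.78% of the genes tested were called higher and 3.75% lower. At this threshold the study itself reports far more genes lower than higher, from an array analysis that was not repeated here. The legend of its figure gives a smaller n than the 4 samples per genotype used here. Groups did not overlap in 1 of the 10 genes and in 17.8% of all genes tested. Of the 10, 6 had a positive and 4 a negative difference, with a median of 0.46 against 0.083 over all genes.

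The median depended on the scaling, on the choice of probe and on hCNR1-/- replicate 4. Without that sample it was 0.23 against 0.17 over all genes, and with the mean of a gene's probes in place of the brightest it was also 0.23. With no scaling, all genes had a median of -0.47, a shift of -0.56 from the main scaling, the 10 genes had -0.097, and 2 differences were positive and 8 negative. The differences of *Apoa1*, *Apoa2*, *Apoe*, *Apoc1* and *Apoc3*, which lay between 0.44 and 0.59 in the main scaling, were then between -0.11 and 0.032. Under quantile normalization they were between -0.077 and 0.20, with *Apob* at 1.46, and the median of the 10 was -0.037. Relative to the median of all genes, *Apob* stood at 1.55 in the main scaling, at 1.46 under quantile normalization and at 1.198 without hCNR1-/- replicate 4. With no scaling this relative value is the same by arithmetic, since the main scaling shifts all genes of an array alike.

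**Figure D4:**
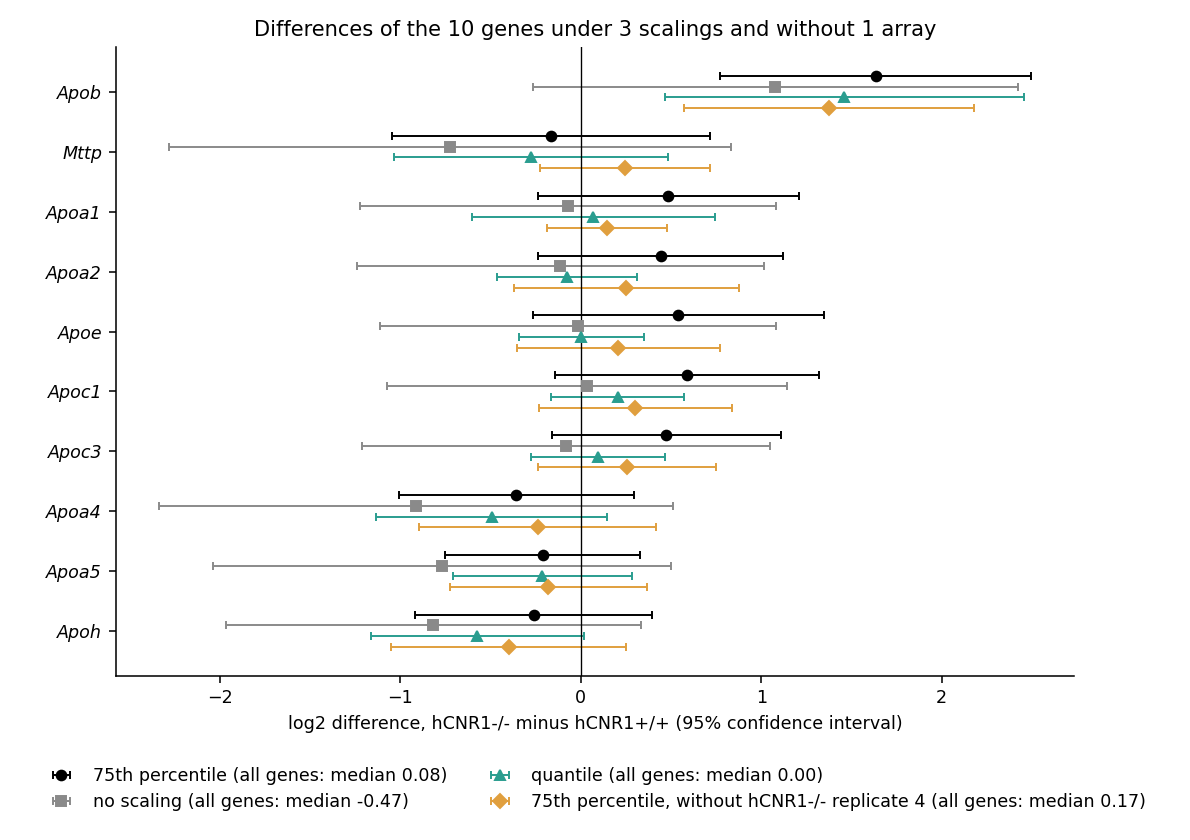
Difference between hCNR1-/- and hCNR1+/+ samples (log2, x axis) with its 95% confidence interval for each of the 10 genes, under the 75th percentile scaling, no scaling, quantile normalization, and the 75th percentile without hCNR1-/- replicate 4. *Apob* lies right of 0 in all of them, its interval taking in 0 with no scaling, while the intervals of the other genes take in 0 in each.

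The genes of the wider pathway were counted in 5 lists, with 105 genes tested in all. At an adjusted p below 0.05, 4 were called higher and 1 lower, where 2.94% and 1.3% of all genes were. Without hCNR1-/- replicate 4 these were 8 and 1, and without any other sample in turn 1 to 3 genes were called in all. Over the 25 alternatives *Mia3* was called under 18, *Vldlr* under 15, *Canx* and *Mia2* under 8 and *Apol7b* under 7, with the direction kept in each. In the list of VLDL assembly and secretion, 35 genes were tested, and 3 rose and 0 fell, with a median difference of 0.074 (0.083 over all genes). *Mia3*, or TANGO1, a receptor that loads large cargo into vesicles at the exits of the endoplasmic reticulum, rose by 1.88 (standard error 0.25, adjusted p = 0.00987 in limma). Its levels were 3.28, 2.99, 2.95 and 2.81 in hCNR1+/+ against 4.93, 4.33, 4.98 and 5.32 in hCNR1-/- replicates, without overlap. Its partner *Mia2* rose by 1.32 (standard error 0.27, adjusted p = 0.0334 in limma), from 2.25 to 3.26 in hCNR1+/+ to between 3.69 and 4.49 in hCNR1-/- samples. *Canx*, or calnexin, a chaperone of glycoproteins, rose by 0.94 (standard error 0.20, adjusted p = 0.0362 in limma), which is under the 2-fold threshold, and its groups did not overlap either.

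Other genes of assembly were not called. *Sar1b*, the GTPase of the transport vesicle coat, had a difference of -1.02 (standard error 0.44, adjusted p = 0.218 in limma), with groups that did not overlap and hCNR1-/- replicate 4 lowest at 0.89. Without that sample it was -0.53 (adjusted p = 0.0933 in limma). *Tm6sf2*, which aids lipidation of VLDL, had 0.72 (standard error 0.26, adjusted p = 0.151 in limma). The differences were -0.14 for *P4hb*, the protein disulfide isomerase that forms the other subunit of the microsomal transfer protein complex, and -0.54 for *Apobec1*, the enzyme that edits *Apob* messenger RNA.

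In the list of other apolipoproteins 16 of 25 genes were tested, with 8 positive and 8 negative differences and a median of 0.014, and 1 gene rose. That gene was *Apol7b*, at -1.22, -0.16, -1.13 and -1.36 in hCNR1+/+ and at 0.54, -0.16, 0.76 and 1.37 in hCNR1-/- replicates (difference 1.59, standard error 0.37, adjusted p = 0.0471 in limma). It belongs to a family of close copies, whose RNA 1 probe may not tell apart. *Apoc2*, the activator of lipoprotein lipase, had a difference of 0.38, *Apom* of HDL -0.13, *Apof* -0.018 and *Clu*, or apolipoprotein J, 0.40, none of them called. *Apof* was at 3.58 in hCNR1+/+ replicate 4 and between 5.43 and 6.57 in the other 7 samples.

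Of 16 genes tested for lipoprotein receptors and lipolysis, 0 rose and 1 fell, with a median of 0.074. *Vldlr*, a receptor that takes up triglyceride-rich particles, fell by 2.05 on the log2 scale (standard error 0.42, adjusted p = 0.0337 in limma). Its levels were 1.08, 1.57, 1.97 and 3.07 in hCNR1+/+ against -0.65, -0.43, 0.25 and 0.31 in hCNR1-/- replicates. *Lrp1*, a receptor of remnant particles, had -0.42, *Scarb1*, the HDL receptor, had 0.0063, and *Lipc*, or hepatic lipase, had 0.094, none of them called.

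In HDL formation and remodelling 13 genes were tested and 0 called, with 1 gene at an unadjusted p below 0.05 in limma and a median of -0.13. That gene was *Lcat*, which esterifies the cholesterol of HDL, with a difference of -0.69 (adjusted p = 0.227 in limma). The cholesterol exporter *Abca1* had -0.21 and the phospholipid transfer protein *Pltp* -0.54. Among 29 regulators of apolipoprotein transcription 0 were called, with 15 positive and 14 negative differences and a median of 0.0025. The 5 genes at an unadjusted p below 0.05 in limma were all higher in hCNR1-/- samples, 1 of them past the study's own threshold. The regulators named below are not among these. The differences were -0.38 for *Hnf4a*, 0.22 for *Nr1h4*, -0.20 for *Nr2f2*, 0.027 for *Ppara*, -0.051 for *Foxo1* and 0.20 for *Creb3l3*, each with an adjusted p in limma between 0.545 and 0.964.

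**Figure D5:**
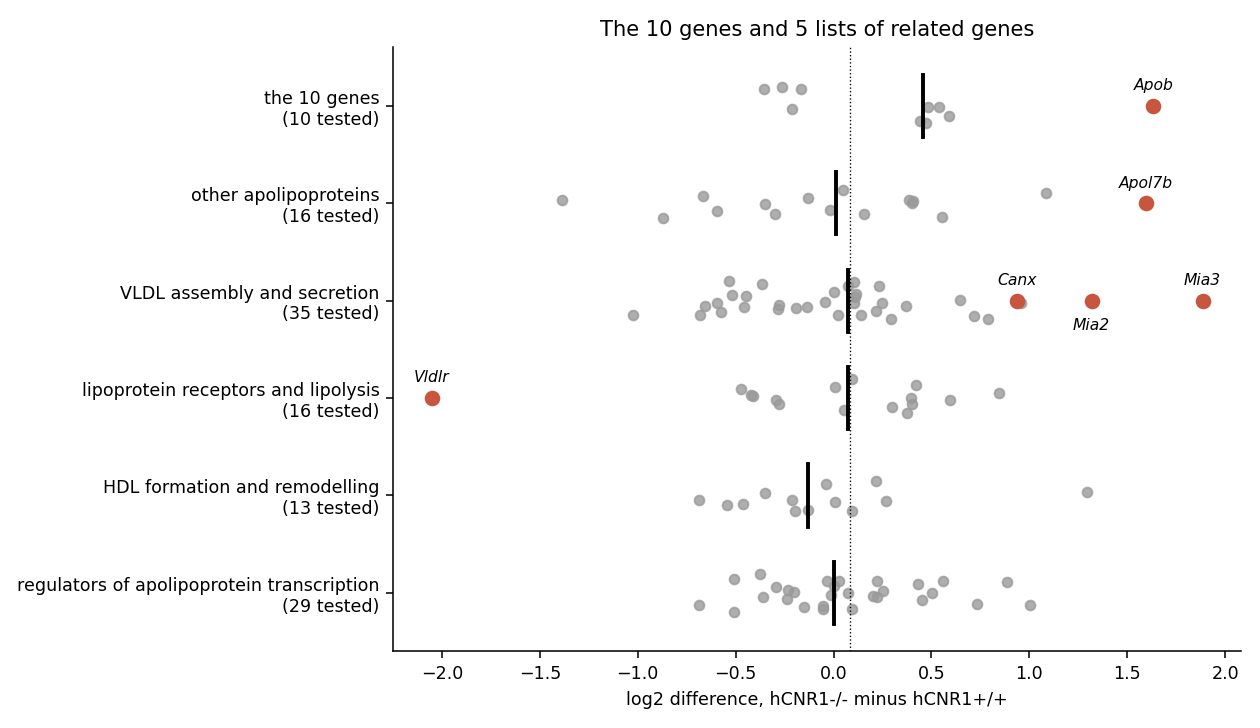
Difference between hCNR1-/- and hCNR1+/+ samples (log2, x axis) of each gene tested, for the 10 genes and 5 lists of related genes, with the median of a list as a black bar, the median of all genes as a dotted line, and genes with an adjusted p below 0.05 in red. *Apob*, *Apol7b*, *Canx*, *Mia2* and *Mia3* lie to the right and *Vldlr* to the left.

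The mean of the 10 genes, each centred on its own mean, stood at -0.36, -0.25, -0.19 and 0.16 on the hCNR1+/+ arrays and at 0.027, 0.099, -0.012 and 0.52 on the hCNR1-/- arrays, highest in each genotype on replicate 4, the array with the lowest percentile of that genotype. The genes most alike to this mean over the 8 arrays were *Hip1r* (Pearson r = 0.985, Spearman 0.976), *Tmem215* (0.984 and 0.976), *Tmem108* (0.9797 and 1), *Apobec3* (0.9795 and 0.952) and *Ldb3* (0.9794 and 0.929). Without hCNR1-/- replicate 4 their Pearson r was between 0.951 and 0.981 over 7 arrays. The arrays share the scaling, and no test was made of these likenesses.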

How the data were processed

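For each of 8 samples the authors deposited the spot intensity that Feature Extraction version 12.0.3.1 wrote per the file headers, background-corrected within the array and not scaled between arrays. A second deposited column held a score that stayed within 0.005 of the spot's z-score of log2 intensity on its array. Differences of these scores are given after multiplication by 3.457, the mean SD of log2 intensity, as an approximate log2 scale. For the array analysis the study cites an earlier publication.

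Groups came from the labels. The 75th percentile of 59305 non-control spots was subtracted from each array's log2 intensity. Outlier-flagged spots were dropped and spots of a probe averaged, and 0 spots were saturated. Gene names were those of RefSeq for GRCm38.p6, matched on unversioned accessions (the array names an older build, so no coordinate of the files was used), which named 28331 of 55681 probes and 21368 genes. Genes with a probe well above background (at least 50% of its spots) on at least 4 of 8 arrays were tested with their brightest probe, with limma version 3.58.1 (lmFit, eBayes) under R version 4.3.3, two-sided, with Benjamini-Hochberg adjustment over 11072 genes. Exact permutation tests used the 70 assignments of 4 against 4 arrays. The fit was tested on simulated data. The number of arrays limits the precision.

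The 10 genes and all lists were chosen with earlier results of these data known. Named are the 10 genes, their probes, 20 genes of the pathway lists whatever their values (others that the rule names are not reported here), list genes with an adjusted p below 0.05, and the 5 genes most alike in pattern. Markers of 7 cell types were also counted. The 25 alternatives were other scalings, filters and probe rules, array weights, a replicate block, other variance models, each sample left out, and 2 added after seeing the data, no scaling and the hepatocyte reference, each without hCNR1-/- replicate 4. A slide or scan block could not be fitted with 1 slide and 1 scan day.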

Additional observations from a re-analysis of the deposited data

Results flagged for a closer look

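In 4 gene and genotype groups a single sample lay far from the other 3, by the ratio of its gap to the whole range (above Dixon's 95% critical value for 4 samples). *Mttp* in hCNR1-/- replicate 4 was at 3.28, with the others between 4.76 and 5.02 (ratio 0.853). *P4hb*, the partner subunit of the *Mttp* product, was low in the same sample, at 6.12 against 6.76 to 6.87 (ratio 0.852). The low level there was not particular to this pair. The mean of the 35 genes tested for VLDL assembly and secretion was also lowest in that sample, at 3.65 against 3.97 to 4.22 in hCNR1+/+ samples. *Clu* in hCNR1+/+ replicate 4 was at 11.21 against 10.52 to 10.56 (ratio 0.934), and *Ppara* in hCNR1-/- replicate 2 was at 4.15 against 4.29 to 4.30 (ratio 0.954). Chance alone gives about 1 in 20 groups. Among the 10 genes 1 of 20 groups was past the ratio, and among the other named genes 3 of 40.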

How the results depend on the processing

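At an adjusted p below 0.05 the count of the 10 genes called was 1 (*Apob*) and became 0 under quantile normalization, the median, the percentile of bright probes, the hepatocyte reference, no scaling, the deposited scores, normexp with quantile, no filter, the mean of probes, the ordinary linear model and both settings added after seeing the data, and ran from 0 to 1 with a sample left out. With no scaling the study's threshold also called 0. The count of pathway genes called, 5, became 3, 0, 2, 2, 0 and 1 under the first 6 of these settings. It was 0 with no filter, 3 in the ordinary linear model and 17 with array weights. Both added settings gave 1, and leaving a sample out gave 1 to 9. The count also moved under normexp with quantile, the mean of probes, each probe on its own and the trended robust variance. Among the 29 regulators tested, 1 was called lower with the mean of probes and 2 higher with array weights. The replicate block called 0 of the 10 genes (*Apob* 1.63, adjusted p = 0.133 in limma) and 0 pathway genes. Deviations of samples with the same number correlated at 0.21, -0.16, -0.05 and 0.02. These values had no reference to be read against, and whether such samples share more than a number was not tested. The cause of these changes was not tested.

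The median of the 10 genes was -0.037 under quantile normalization, -0.046 under normexp with quantile and -0.097 with no scaling. Signs turned as follows, all for genes that were not called. With no scaling *Apoa1* was at -0.072, *Apoa2* -0.11, *Apoc3* -0.081, *Apoe* -0.015, *Apoc2* -0.17, *Clu* -0.15, *Scarb1* -0.55, *Lipc* -0.46, *Nr1h4* -0.33, *Ppara* -0.53 and *Creb3l3* -0.35. Under quantile normalization *Apoa2* was at -0.077, *Scarb1* -0.14, *Ppara* -0.072 and *Creb3l3* -0.099, and under normexp with quantile *Apoa2* -0.076, *Apoe* -0.015, *Scarb1* -0.17, *Ppara* -0.057 and *Creb3l3* -0.092. *Scarb1* and *Ppara* were at -0.040 and -0.019 with the median, -0.15 and -0.13 with bright probes (*Lipc* -0.065), -0.060 and -0.043 with the scores (*Lipc* -0.086) and -0.059 and -0.078 with the mean of probes. With the hepatocyte reference *Apof* was at 0.091 and *Foxo1* at 0.058. With array weights *Mttp* was at 0.36, *P4hb* 0.11, *Abca1* 0.19 and *Foxo1* 0.22. Without hCNR1-/- replicate 4, no scaling gave *Mttp* 0.12, *Scarb1* -0.045 and *Ppara* -0.11, and the hepatocyte reference gave *Mttp* 0.37, *P4hb* 0.16, *Apof* 0.12, *Hnf4a* 0.030, *Nr2f2* 0.11 and *Foxo1* 0.20. With a sample left out, *Mttp* ran from -0.335 to 0.25, *Abca1* from -0.46 to 0.31, *Apof* from -0.70 to 0.30, *Apom* from -0.38 to 0.0051, *Foxo1* from -0.19 to 0.24, *Lipc* from -0.035 to 0.26, *P4hb* from -0.21 to 0.037, *Ppara* from -0.11 to 0.24 and *Scarb1* from -0.088 to 0.17. Of the other values for single genes, 716 kept direction and side of the threshold, 89 kept the direction and lost the call, and 3 gained it.

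Over all genes, 325 were called higher and 144 lower, against 25 and 25 with the median, 30 and 51 with the scores, 8 and 14 with no filter, 2176 and 646 with array weights, 0 and 0 with the replicate block, 13 and 25 without hCNR1+/+ replicate 3 and 1121 and 323 without hCNR1-/- replicate 4. Dim probes such as that of *Nr2f2*, well above background on 4 arrays, are limited by the background.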
